A study of Homo sapiens with 9 samples.

Results

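The 10 genes described here encode the main cytosolic and mitochondrial heat shock proteins, namely HSPA8, HSPA1A, HSPA1B, DNAJB1, HSPH1, HSP90AA1, HSP90AB1, HSPB1, HSPD1 and HSPE1. They were chosen by name among the 19605 genes on the array, and every probe set that the platform annotation assigns to them was taken, 41 of 49293 probe sets tested. A probe set is a group of short oligonucleotides that together read one stretch of a transcript. Of the 41, 8 carried more than 1 gene symbol, and 4 of these were shared by HSPA1A and HSPA1B, so these neighbouring genes were counted as 1 unit and the members as 9 units. A mean log2 signal of at least 5 over all arrays was reached by 34 member probe sets and missed by 7, against 43.1% of all probe sets tested that missed it.

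The RNA came from LAN-1, an established human neuroblastoma cell line with amplified MYCN. LAN-1 cells were mixed into tumor-free bone marrow, mononuclear cells were isolated on a density gradient, and the tumor cells were pulled out with magnetic beads against the ganglioside GD2. Arrays labelled frozen with gradient held cells that were frozen in medium with DMSO, thawed, passed over an additional density gradient and then enriched. Arrays labelled frozen without gradient held cells that were frozen and thawed in the same way and enriched directly, and fresh arrays held cells that were enriched without freezing. The arrays are named by their deposited labels throughout. Under these labels the arrays without the additional gradient differed from fresh ones at more genes than the arrays with it, the opposite order to the study's text, so an exchange of the frozen labels cannot be told apart from a difference between the conditions, and every statement that separates the frozen conditions rests on these labels. All groups share the first gradient and the bead enrichment, and each has 3 arrays. The study describes 3 biological replicates (A to C) over the 3 conditions. The deposited labels do not tie the 3 replicate numbers of a group to them, or to named cultures or marrow samples. The fit used here therefore does not pair the arrays, and its p-values measure the spread between these arrays only. The comparisons ask whether freezing and thawing, or the additional gradient, altered transcript levels. A single cell line carried the experiment, and marrow cells that survive the enrichment contribute RNA.

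Heat shock proteins are molecular chaperones, which hold unfolded proteins and help them to fold. HSP70 proteins bind short exposed stretches of a client under the control of J-domain proteins and nucleotide exchange factors, HSP90 proteins finish the folding of kinases and receptors, and small heat shock proteins keep damaged proteins soluble. In mitochondria, HSP60 and its lid HSP10 form a closed folding chamber. Heat and other stresses release the transcription factor HSF1, which binds heat shock elements in front of these genes and raises the inducible members steeply, whereas HSPA8 and HSP90AB1 are made at high levels in unstressed cells as well.

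The heat shock element is built from inverted repeats of the unit GAA. It was searched for on both strands, as GAANNTTC or TTCNNGAA for a pair of units and as GAANNTTCNNGAA or TTCNNGAANNTTC for 3 units in a row, in the 250 bases before each RefSeq start site (build GRCh38.p14). Every match of 3 units also contains matches of the pair. All 10 genes had at least 1 start site in the RefSeq table, 16 in all. A match of 3 units lay before 4 of the 16 start sites, 1 each of HSPA8, HSP90AA1, HSP90AB1 and HSPD1, against 0.441% of the 35116 start sites of all genes. A pair of units lay before 8 of the 16, 1 each of 8 genes, against 11.6% of all start sites. The other start sites of HSP90AA1, HSP90AB1, DNAJB1 and HSPD1 had no match. For HSPD1 the match lay before the start site at 197499840, and the window of the one at 197500274 had none. No match was found in the windows of HSPH1 and HSPE1. The stretches below show, for each gene, the match of 3 units nearest to the start site or, where there was none, the nearest pair, with matching bases in capitals. They are given because a shared element is the known link between these genes, and a match is not evidence of binding.
HSPA8 (chr11:123062171-123062199, minus strand): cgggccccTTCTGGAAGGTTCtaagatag
HSP90AA1 (chr14:102087112-102087140, minus strand): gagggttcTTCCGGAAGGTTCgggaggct
HSP90AB1 (chr6:44247823-44247851, plus strand): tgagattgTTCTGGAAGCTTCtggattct
HSPD1 (chr2:197500062-197500090, minus strand): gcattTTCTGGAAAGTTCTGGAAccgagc
HSPA1A (chr6:31815426-31815455, plus strand): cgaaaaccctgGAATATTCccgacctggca
HSPA1B (chr6:31827622-31827651, plus strand): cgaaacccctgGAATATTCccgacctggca
DNAJB1 (chr19:14518426-14518455, minus strand): ggcgggctctgGAAGCTTCcgccggacggg
HSPB1 (chr7:76302480-76302509, plus strand): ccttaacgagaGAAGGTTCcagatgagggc
HSPA8, HSP90AA1 and HSP90AB1 carry the 3 units in the same orientation, and HSPD1 carries a longer run. HSPA1A and HSPA1B share the same pair of units at almost the same distance, 99 and 98 bases before the start site. Their 250-base windows were identical at 235 of 249 aligned bases (94.4%), so these neighbours resemble each other in front of the gene as well as in the transcript that the shared probe sets read.

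A probe set passed the criterion used here where the unadjusted limma p was under 0.05 and the means differed by more than 1 on the log2 scale in either direction. The words rose and fell are kept for such probe sets. The fit does not pair the arrays by replicate number. With that number added as a block, 2 member probe sets passed in frozen with gradient relative to fresh cells, as without it. In frozen without gradient relative to fresh cells 12 passed instead of 2. In frozen with relative to frozen without gradient cells 14 passed instead of 5, and the last paragraph names the genes. Over all 49293 probe sets, 46, 1218 and 2144 passed with the block and 30, 762 and 1351 without it, in the same order. In the fit without the block no probe set of any gene reached a Benjamini-Hochberg adjusted p under 0.05 in any of the 3 comparisons, while 2353 (frozen with gradient against fresh), 6633 (frozen without gradient against fresh) and 9350 (frozen with against frozen without gradient) had an unadjusted p under 0.05. The arrays also differed in a labelling control. The array carries probe sets against the 3′ and the 5′ end of GAPDH, and since labelling starts at the 3′ end of the RNA, their difference reads how evenly both ends of a transcript were captured. This log2 difference was 6.73, 2.90 and 2.07 on the frozen with gradient arrays, 1.09, 1.45 and 0.94 on the frozen without gradient arrays, and 4.92, 3.56 and 1.56 on the fresh arrays. The means were 3.90 ± 2.49, 1.16 ± 0.26 and 3.35 ± 1.69 (SD, n = 3 each). In an exact two-sided permutation test the frozen without gradient arrays lay below the frozen with gradient arrays at p = 0.1 and below the fresh arrays at p = 0.1, the smallest p that 3 against 3 allows. The difference between frozen with gradient and fresh arrays had an exact p of 0.8. MYCN, a neuroblastoma marker, stood between 13.48 and 13.66 on frozen with gradient arrays, 13.15 and 13.45 on frozen without gradient arrays and 13.46 and 13.63 on fresh arrays (log2). Among 27 probe sets of 10 such markers 0 passed the criterion in frozen with gradient relative to fresh cells. In frozen without gradient relative to fresh cells 2 of the 27 rose, where 1.4% of all probe sets did. In frozen with relative to frozen without gradient cells 4 of the 27 fell, where 2.65% of all probe sets did.

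**Figure D1:**
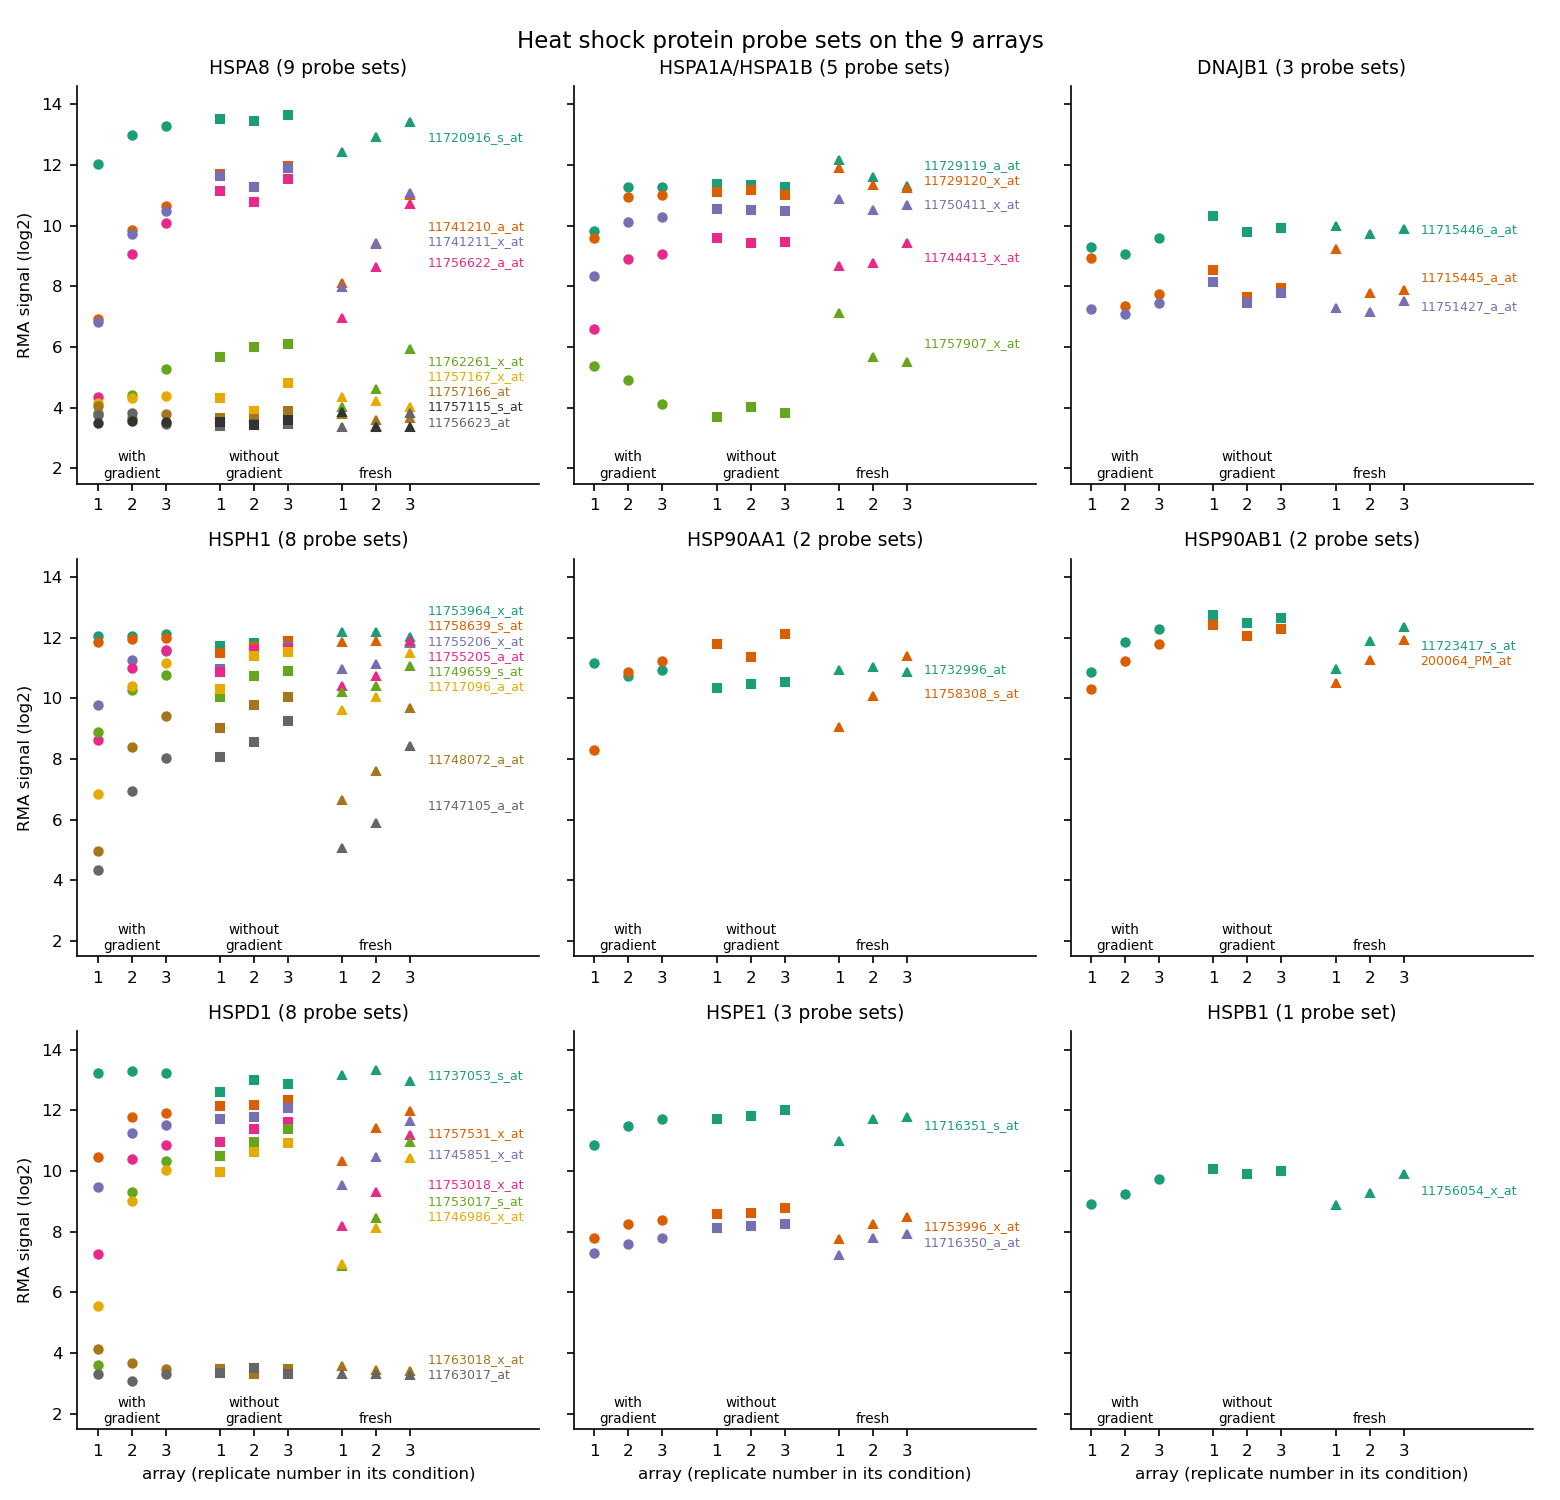
RMA signal (log2) of each of the 41 heat shock protein probe sets on the 9 arrays, in 1 panel per gene. Each point is 1 array (circles frozen with gradient, squares frozen without gradient, triangles fresh), and colours mark the probe sets named at the right. Probe sets of HSPA8, HSPH1 and HSPD1 spread over several log2 units within the frozen with gradient and the fresh arrays, while 1 or more probe sets of HSPH1 and HSPD1 stayed nearly level.

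Counted over the 41 member probe sets, frozen with gradient relative to fresh cells gave 0 that rose and 2 that fell, both of HSPA1A/HSPA1B, where 0.0284% and 0.0325% of all probe sets rose and fell. At an unadjusted limma p under 0.05 there were 5 of the 41, against 2353 of all 49293 probe sets. The 2 became 4 without frozen with gradient replicate 2, 3 without frozen with gradient replicate 3 or fresh replicate 3, 1 without frozen with gradient replicate 1 and 0 without fresh replicate 1. Of all probe sets, 39, 234, 59, 9 and 21 fell in these fits, in the same order, against 16 with all arrays. Member arrays lay higher without overlap for 0 probe sets and lower for 5 (12.2%), against 4.06% and 3.72% of all probe sets, and these 5 were 4 of HSPA1A/HSPA1B and 1 of DNAJB1. The median member difference was -0.13, against 0.01 for all probe sets.

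Frozen without gradient relative to fresh cells gave 1 that rose and 1 that fell, where 1.4% and 0.144% of all probe sets did. At an unadjusted limma p under 0.05 there were 9 of the 41, against 6633 of all 49293 probe sets. Member arrays lay higher without overlap for 10 probe sets (24.4%) and lower for 4 (9.76%), against 9.81% and 13.3% of all probe sets. The 10 belonged to HSPA8, HSP90AB1, HSPD1 and HSPE1. The count that rose depended on the fit. It was 11 without frozen with gradient replicate 1 or fresh replicate 3, 12 with array weights and 9 with the 6 compared arrays alone. It was 0 with the GAPDH covariate described below, with quantile normalization, and without frozen with gradient replicate 2, any frozen without gradient array, or fresh replicate 1 or 2. The count that fell was 1 in these fits and 2 with the covariate. Of all probe sets, 691 rose in the fit given first. There were 1123 without frozen with gradient replicate 1, 1890 without fresh replicate 3, 1459 with array weights and 1045 with the 6 arrays. Where the count of members that rose was 0, between 64 and 731 of all probe sets rose. With the covariate 254 of all probe sets fell, against 71 in the fit given first. The median member difference was 0.46, against -0.06 for all probe sets.

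Frozen with gradient relative to frozen without gradient cells gave 0 that rose and 5 that fell, where 0.0893% and 2.65% of all probe sets did. At an unadjusted limma p under 0.05 there were 14 of the 41, against 9350 of all 49293 probe sets. Member arrays lay higher without overlap for 4 probe sets (9.76%) and lower for 20 (48.8%), against 17.4% and 13.1% of all probe sets. Each of the 9 gene units had at least 1 of the 20. The number past the criterion was 0 without frozen with gradient replicate 1, without frozen without gradient replicate 3 or with the covariate, 1 and 3 without frozen without gradient replicates 1 and 2, and 17 without frozen with gradient replicate 3, where 1 of them rose. Over all probe sets it was 1351 in the fit given first and 3465 without frozen with gradient replicate 3. It was between 135 and 805 where the member number was 0, and 772 and 1185 where it was 1 and 3. The median member difference was -0.68, against 0.10 for all probe sets. This comparison shares the frozen without gradient arrays with that of frozen without gradient and fresh cells, so the opposite signs of both are not independent.

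**Figure D2:**
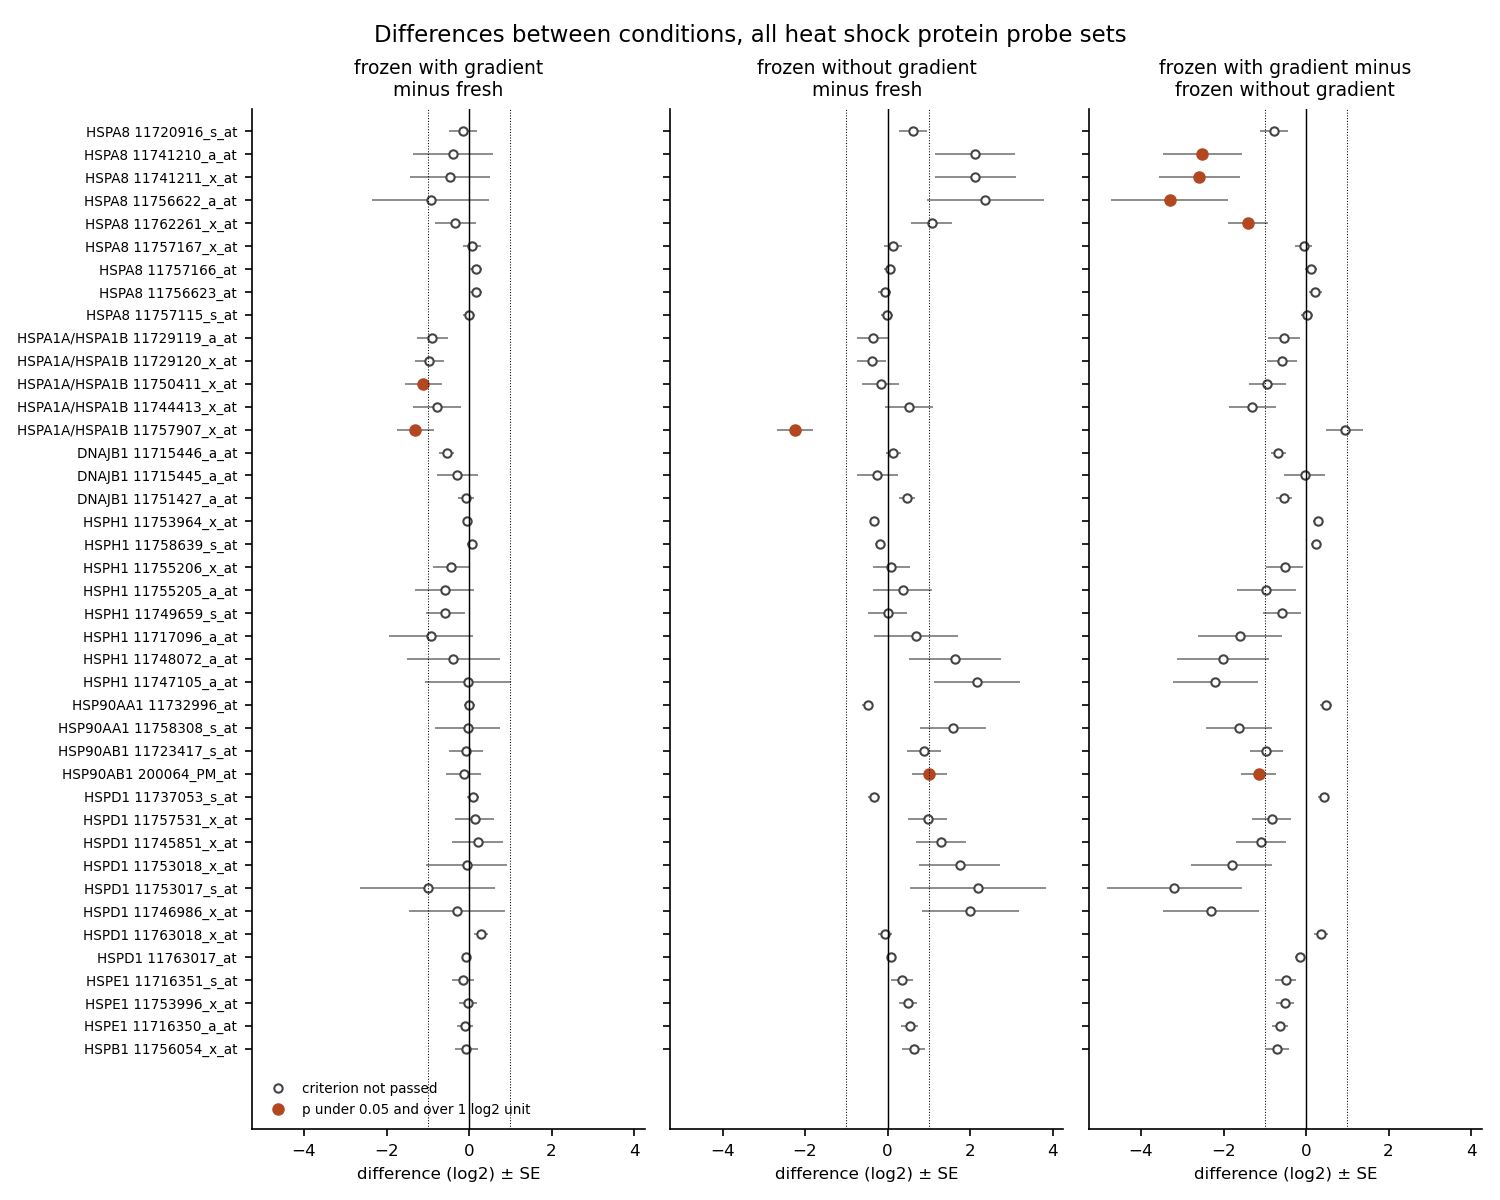
Log2 difference between conditions for the 41 heat shock protein probe sets, with the limma standard error as bars and dotted lines at a difference of 1 in either direction. Filled points passed the criterion. Between frozen with gradient and fresh cells only 2 probe sets of HSPA1A/HSPA1B passed, and the other 2 panels share the frozen without gradient arrays, on opposite sides of the difference.

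HSPA8, the constitutive cytosolic HSP70, had 9 probe sets, and 4 of them fell in frozen with gradient cells relative to frozen without gradient cells. The probe set with the highest mean, 11720916_s_at, read 12.02, 12.99 and 13.29 on frozen with gradient arrays, 13.50, 13.44 and 13.66 on frozen without gradient arrays, and 12.43, 12.91 and 13.42 on fresh arrays. It did not pass the criterion in any comparison, and its frozen with gradient arrays lay below all frozen without gradient arrays, at a difference of -0.77 (SE 0.34). The most variable probe set, 11756622_a_at, read 4.36, 9.08 and 10.10 on frozen with gradient arrays, 11.13, 10.78 and 11.54 on frozen without gradient arrays, and 6.97, 8.65 and 10.72 on fresh arrays. The frozen without gradient arrays were the highest 3 of the 9, and frozen with gradient and fresh arrays overlapped. In bulk RNA, fewer cells of a type and less RNA per cell cannot be told apart.

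The probe sets of HSPA8 that fell in frozen with gradient relative to frozen without gradient cells had log2 differences of -3.30 (SE 1.42) for 11756622_a_at, -2.58 (SE 0.98) for 11741211_x_at, -2.51 (SE 0.97) for 11741210_a_at and -1.41 (SE 0.49) for 11762261_x_at. The limma adjusted p lay between 0.253 and 0.262. The remaining 4 probe sets of HSPA8 stood between 3.35 and 4.81 on every array, with differences of no more than 0.23. All 4 calls were lost without frozen with gradient replicate 1, where the differences were -1.56, -1.50, -1.41 and -1.07, and without frozen without gradient replicate 3, where they were -3.11, -2.44, -2.35 and -1.32. The first 3 were also lost without frozen without gradient replicate 1 (-3.31, -2.57 and -2.48), 11756622_a_at without frozen without gradient replicate 2 (-3.49) or fresh replicate 2 (-3.30, with fewer arrays in the fit), and 11762261_x_at without frozen without gradient replicate 2 (-1.37) or frozen with gradient replicate 2 (-1.35). The call of 11756622_a_at was also lost with quantile normalization or with the 6 compared arrays alone (-3.30 in each). The GAPDH control moved with this result. When each array's GAPDH difference was added to the fit as a covariate, the same 4 differences were -0.03, -0.34, -0.29 and -0.42, none past the criterion.

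Against fresh cells, the frozen without gradient arrays were higher without overlap for 4 HSPA8 probe sets (11720916_s_at, 11741210_a_at, 11741211_x_at and 11756622_a_at), with log2 differences between 0.62 and 2.37 and SEs between 0.34 and 1.42, none past the criterion in the fit without the replicate block. With the block, 11741210_a_at (2.13), 11741211_x_at (2.12), 11756622_a_at (2.37) and 11762261_x_at (1.07) passed. In frozen with gradient against fresh cells the 9 differences ran from -0.93 to 0.17 and all arrays overlapped.

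The order of the 9 arrays in HSPA8 11756622_a_at was the exact reverse of their order in the GAPDH difference. For this probe set, Pearson's r with the GAPDH 3′ minus 5′ difference was -0.997 (exact permutation p = 2.76e-06, the smallest that 9 arrays can give) and Spearman's rho was -1 (exact permutation p = 5.51e-06). Over the 41 member probe sets tested in this way, the adjusted p were 2.82e-05 and 5.65e-05. Without frozen with gradient replicate 1 and fresh replicate 1, the arrays farthest from the median difference, r was -0.994, and over deviations from the condition means r was -0.998. The probe sets 11720916_s_at, 11741210_a_at and 11741211_x_at gave the same array order, although the first spanned 1.64 log2 units over the arrays and 11756622_a_at spanned 7.17. Of the 41 relations, 24 negative and 2 positive ones had an adjusted exact permutation p of r under 0.05. Of the 34 member probe sets with a mean of at least 5, 22 had an r under -0.9, against 14.2% of 28056 such probe sets of all genes.

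**Figure D3:**
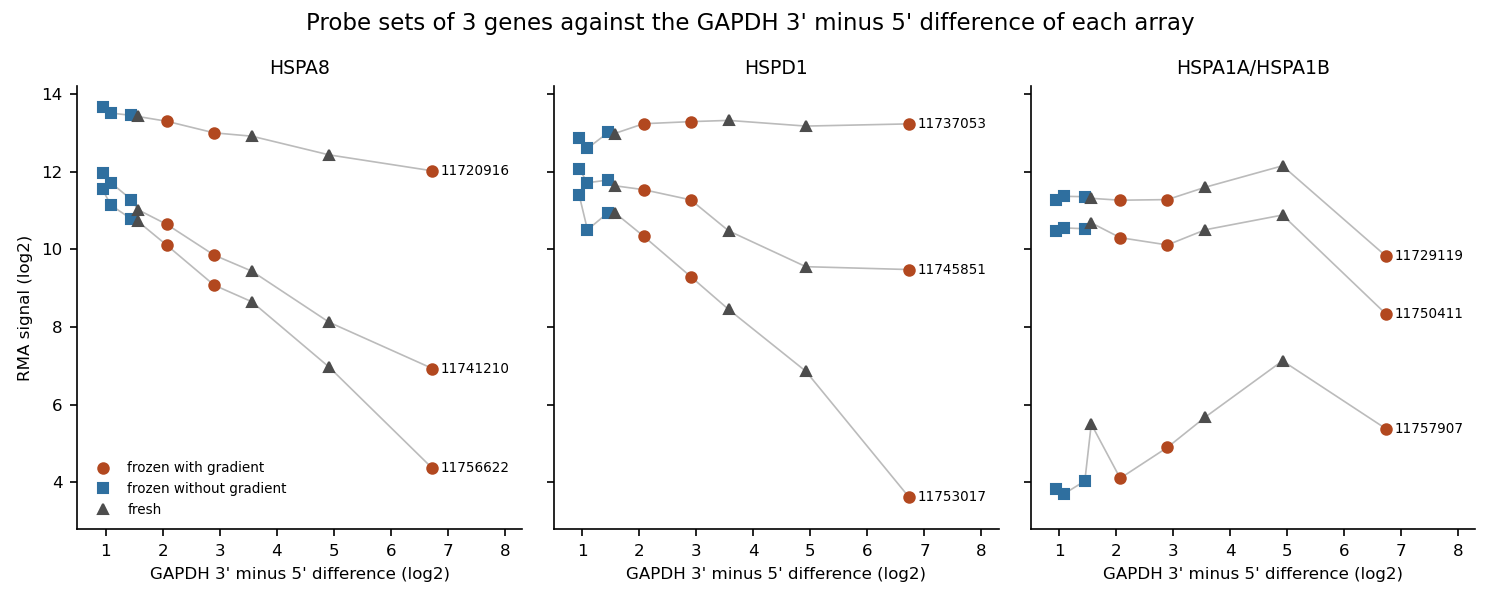
RMA signal (log2) of 3 probe sets each of HSPA8, HSPD1 and HSPA1A/HSPA1B against the GAPDH 3′ minus 5′ difference (log2) of the same array. Each point is 1 array, and grey lines join the points of a probe set in order of the difference. HSPA8 11756622_a_at goes down through all 9 arrays to 4.36 at a difference of 6.73, while HSPD1 11737053_s_at stays between 12.60 and 13.32.

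The genes whose signal was most like HSPA8 11756622_a_at over the 9 arrays were EIF2AK2, LSM4, MYCN, OAZ1 and COPE, with Pearson's r between 0.997 and 0.998. The arrays are shared by all of them, and the MYCN probe set in question, 11750948_a_at, read 6.38, 9.87 and 10.41 on frozen with gradient arrays, 11.40, 11.37 and 11.67 on frozen without gradient arrays and 8.14, 9.45 and 11.11 on fresh arrays, unlike the level MYCN probe set given above.

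HSPA1A and HSPA1B, the stress-inducible cytosolic HSP70 genes, had no probe set that rose in frozen cells and 2 that fell. They were read by 5 probe sets, 4 of which serve both genes and 1 of which, 11729120_x_at, is annotated to HSPA1B alone. The suffix x marks probe sets with oligonucleotides that may also bind other transcripts, so the genes cannot be separated. The probe set with the highest mean, 11729119_a_at, read 9.83, 11.28 and 11.26 on frozen with gradient arrays, 11.36, 11.35 and 11.26 on frozen without gradient arrays, and 12.15, 11.60 and 11.31 on fresh arrays. Each fresh array lay above every frozen with gradient array, and fresh and frozen without gradient arrays overlapped.

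In frozen with gradient relative to fresh cells, 4 of the 5 probe sets were lower without overlap. Of these, 11750411_x_at fell by 1.10 (SE 0.44) and 11757907_x_at fell by 1.31 (SE 0.45), both at a limma adjusted p of 0.824, while 11729119_a_at and 11729120_x_at differed by -0.90 (SE 0.38) and -0.96 (SE 0.36) and did not pass. The probe set 11750411_x_at read 8.34, 10.11 and 10.30 on frozen with gradient arrays and 10.88, 10.50 and 10.68 on fresh arrays, so that frozen with gradient replicate 1 lay far below the others. Its call was lost without that array (-0.48), and without fresh replicate 1 (-1.01), 2 (-1.20) or 3 (-1.11). It was also lost with quantile normalization (-0.98), cyclic loess (-0.999), array weights (-0.45), the 6 compared arrays alone (-1.10), the GAPDH covariate (-0.95) and without both arrays of the highest GAPDH difference (-0.39). With the covariate it was lost on the size of the difference only, at an unadjusted limma p of 0.0081. All 5 probe sets were lower in that fit, by differences from -1.47 to -0.52, with unadjusted limma p from 0.000279 to 0.034. The call of 11757907_x_at was lost without frozen with gradient replicate 3 (-0.96) or fresh replicate 1 (-0.79) and with array weights (-0.95).

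The probe set 11757907_x_at also fell by 2.24 on the log2 scale in frozen without gradient relative to fresh cells (SE 0.45, limma adjusted p = 0.261). It read 5.38, 4.90 and 4.11 on frozen with gradient arrays, 3.71, 4.04 and 3.84 on frozen without gradient arrays, and 7.13, 5.68 and 5.50 on fresh arrays. The fresh arrays were the highest 3 of the 9 and the frozen without gradient arrays the lowest 3. The call was kept without each of the 9 arrays in turn, with values between -2.54 and -1.73, and in a fit with the GAPDH covariate, which it passed, it was -1.58. Its mean of 4.92 lies under 5, so it is absent from the fit of probe sets with a mean of at least 5, and whether its frozen without gradient signals lie above background is not known from these values. The other 4 probe sets of these genes differed by -0.38 to 0.53 in this comparison. With the GAPDH covariate these 4 were all lower, by differences from -0.78 to -0.46, with unadjusted limma p from 0.043 to 0.106. None of them passed. Without the covariate, 11757907_x_at differed from 11729119_a_at by -1.88 (SE 0.61, limma adjusted p = 0.226) in a fit of the difference between both probe sets. Only the first of these passed the criterion on the arrays labelled frozen without gradient.

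The genes most like 11757907_x_at over the 9 arrays were S100A12 (r = 0.981) and CAMP (r = 0.974), both made by granulocytes, then LRRC1, ERCC8 and SNORA30 (r between 0.961 and 0.973). S100A12 read 6.42, 6.02 and 5.24 on frozen with gradient arrays, 4.61, 4.70 and 4.28 on frozen without gradient arrays, and 8.92, 6.36 and 6.48 on fresh arrays. Among marrow cell markers, 5 of 18 granulocyte and 5 of 18 erythroid probe sets fell in frozen without gradient relative to fresh cells, where 0.144% of all probe sets did. In frozen with gradient relative to fresh cells 1 granulocyte and 4 erythroid probe sets fell, where 0.0325% of all probe sets did. In the first of these comparisons 1 of 26 monocyte probe sets rose and 1 fell, where 1.4% and 0.144% of all probe sets did, and 0 lymphoid and 0 megakaryocyte probe sets passed. The summed linear signal of 11 granulocyte markers ran from 436 to 1626 on frozen with gradient arrays, from 249 to 642 on frozen without gradient arrays and from 1137 to 5186 on fresh arrays, with S100A8 the brightest and 3 of the 11 under 5 on every array. The summed signal of 8 erythroid marker probe sets, led by the globin HBB and with 1 of the 8 under 5 on every array, ran from 1055 to 1396 on frozen with gradient arrays, from 276 to 889 on frozen without gradient arrays and from 2022 to 7236 on fresh arrays. On fresh replicates 1, 2 and 3 the granulocyte sum was 5186, 1137 and 1138. The erythroid sum was 2022, 4948 and 7236 there, lowest on the fresh array where 11757907_x_at was highest. The corresponding sums were 919 to 3279, 1321 to 1914 and 1500 to 1736 for 9 monocyte markers, 293 to 493, 268 to 288 and 285 to 323 for 8 lymphoid markers, and 392 to 716, 230 to 381 and 248 to 445 for 5 megakaryocyte markers, on frozen with gradient, frozen without gradient and fresh arrays in that order. The part of marrow cells in the HSPA1A/HSPA1B result was not tested.

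**Figure D4:**
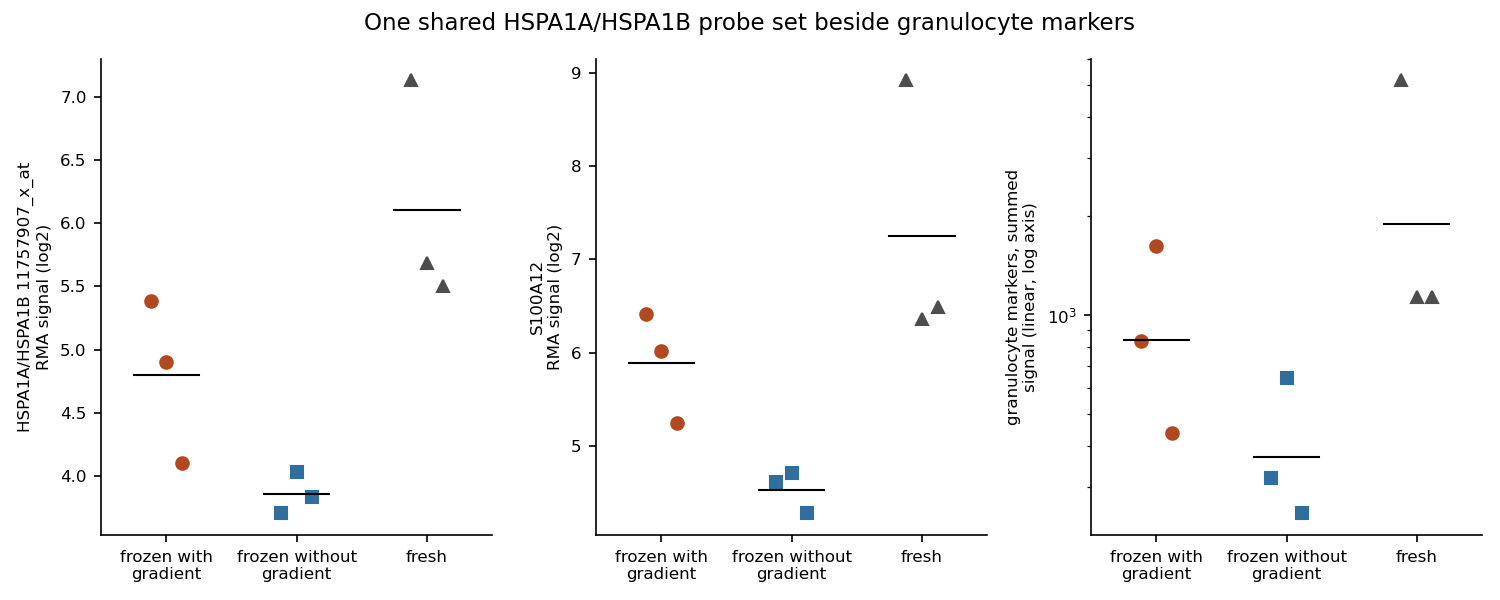
The HSPA1A/HSPA1B probe set 11757907_x_at (log2), S100A12 (log2) and the summed signal of 11 granulocyte markers (linear signal on a log axis) in the 3 conditions. Each point is 1 array and lines give the mean (for the sums, the mean on the log scale). On all 3 panels the highest array is fresh replicate 1, and the frozen without gradient arrays include the lowest.

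In frozen with gradient relative to frozen without gradient cells no HSPA1A/HSPA1B probe set passed the criterion in the fit without the replicate block. With the block, 11744413_x_at passed. The differences ran from -1.30 (SE 0.58) for 11744413_x_at to 0.94 (SE 0.45) for 11757907_x_at, in opposite directions and without overlap of the arrays for both.

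DNAJB1, the J-domain partner that delivers clients to HSP70 and a sensitive target of HSF1, did not pass the criterion on any of its 3 probe sets in any comparison. The probe set 11715446_a_at read 9.31, 9.07 and 9.61 on frozen with gradient arrays, 10.31, 9.78 and 9.93 on frozen without gradient arrays, and 9.9996, 9.71 and 9.89 on fresh arrays. The frozen with gradient arrays were the lowest 3 of the 9, with differences of -0.54 (SE 0.18) from fresh and -0.68 (SE 0.18) from frozen without gradient, and frozen without gradient and fresh arrays overlapped. The other 2 probe sets differed by -0.53 to 0.46 over all comparisons.

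HSPH1, the large HSP110 protein that acts as an exchange factor for HSP70, showed how far probe sets of one gene can part. The probe set 11753964_x_at read 12.06, 12.07 and 12.11 on frozen with gradient arrays, 11.74, 11.82 and 11.84 on frozen without gradient arrays, and 12.18, 12.19 and 12.01 on fresh arrays, a span of 0.46. On the same arrays 11747105_a_at read 4.33, 6.95 and 8.04 in frozen with gradient, 8.08, 8.55 and 9.27 in frozen without gradient, and 5.08, 5.91 and 8.43 in fresh cells, a span of 4.93. The first differed by -0.33 (SE 0.10) in frozen without gradient relative to fresh cells, the second by 2.16 (SE 1.04). Neither passed the criterion, and the difference between both was 2.49 (SE 1.09, limma adjusted p = 0.265). A second probe set, 11758639_s_at, was as level as the first, and the remaining 5 spread more widely. None of the 8 passed in any comparison in the fit without the replicate block or the GAPDH covariate. With the block, 11748072_a_at (1.64) and 11747105_a_at (2.16) passed in frozen without gradient relative to fresh cells. In frozen with relative to frozen without gradient cells both passed (-2.02 and -2.19), as did 11717096_a_at (-1.60). With the covariate, 11717096_a_at passed in frozen without gradient relative to fresh cells (-1.07).

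HSP90AA1, the inducible cytosolic HSP90, had 2 probe sets with opposite patterns. The probe set 11732996_at read 11.17, 10.73 and 10.93 on frozen with gradient arrays, 10.35, 10.48 and 10.55 on frozen without gradient arrays, and 10.93, 11.03 and 10.86 on fresh arrays. The frozen without gradient arrays were the lowest 3. The probe set 11758308_s_at read 8.30, 10.86 and 11.24 on frozen with gradient arrays, 11.79, 11.37 and 12.13 on frozen without gradient arrays, and 9.07, 10.06 and 11.38 on fresh arrays. Here the frozen without gradient arrays were high, overlapping the fresh arrays only at fresh replicate 3. In frozen without gradient relative to fresh cells the probe sets differed by -0.48 (SE 0.14) and 1.59 (SE 0.79), neither past the criterion, and from each other by 2.07 (SE 0.89, limma adjusted p = 0.260). In frozen with relative to frozen without gradient cells they differed from each other by -2.11 (SE 0.89, limma adjusted p = 0.233). With the replicate block, 11758308_s_at passed in both of these comparisons, at 1.59 and -1.63.

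HSP90AB1, the constitutive cytosolic HSP90, rose in frozen without gradient relative to fresh cells and fell in frozen with gradient relative to frozen without gradient cells on 1 of its 2 probe sets. The probe set 200064_PM_at read 10.30, 11.24 and 11.80 on frozen with gradient arrays, 12.42, 12.06 and 12.29 on frozen without gradient arrays, and 10.52, 11.28 and 11.94 on fresh arrays. The frozen without gradient arrays were the highest 3. It rose by 1.01 (SE 0.42, limma adjusted p = 0.351) in frozen without gradient relative to fresh cells and fell by 1.15 (SE 0.42, limma adjusted p = 0.253) in frozen with gradient relative to frozen without gradient cells. The rise was kept without 3 of the 9 arrays left out in turn. It was lost without fresh replicate 1 (0.65) or 2 (1.03), without any frozen without gradient array (0.93, 1.11 and 0.996) and without frozen with gradient replicate 2 (1.01, with fewer arrays in the fit), with quantile normalization (0.94), array weights (0.91) and without both arrays of the highest GAPDH difference (0.65), and was 0.28 with the GAPDH covariate, where it did not pass. The fall was lost without frozen with gradient replicate 1 (-0.74) and without frozen without gradient replicate 1 (-1.07) or 3 (-1.13), with quantile normalization (-0.97), array weights (-0.90) and without both arrays of the highest GAPDH difference (-0.74), and was -0.22 with the covariate. The probe set shared with the pseudogene HSP90AB3P, 11723417_s_at, ran alongside, at 0.89 (SE 0.41) and -0.96 (SE 0.41), and did not pass.

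HSPB1, the small heat shock protein HSP27, had a single probe set. It read 8.91, 9.26 and 9.73 on frozen with gradient arrays, 10.08, 9.89 and 10.02 on frozen without gradient arrays, and 8.89, 9.29 and 9.91 on fresh arrays. The frozen without gradient arrays lay above all frozen with gradient arrays and overlapped the fresh ones at fresh replicate 3. The differences were 0.63 (SE 0.28) in frozen without gradient relative to fresh, -0.70 (SE 0.28) in frozen with relative to frozen without gradient and -0.06 (SE 0.28) in frozen with gradient relative to fresh cells, none past the criterion.

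HSPD1 (HSP60) and HSPE1 (HSP10), the chamber and lid of the mitochondrial chaperonin, lie head to head on chromosome 2, with HSPD1 on the minus strand up to 197500274 and HSPE1 on the plus strand from 197500379. No probe set of either passed the criterion in the fit without the replicate block. With the block, probe sets of HSPD1 passed in both comparisons that involve the frozen without gradient arrays, and none of HSPE1 did. The HSPD1 probe set with the highest mean, 11737053_s_at, read 13.23, 13.28 and 13.23 on frozen with gradient arrays, 12.60, 13.00 and 12.87 on frozen without gradient arrays, and 13.17, 13.32 and 12.98 on fresh arrays. The frozen with gradient arrays lay above all frozen without gradient arrays, by 0.42 (SE 0.14). The most variable one, 11753017_s_at, which also matches the pseudogene HSPD1P5, read 3.62, 9.29 and 10.34 on frozen with gradient arrays, 10.50, 10.94 and 11.38 on frozen without gradient arrays, and 6.86, 8.45 and 10.94 on fresh arrays. On this one the frozen with gradient arrays lay below all frozen without gradient arrays, at a difference of -3.19 (SE 1.64), the opposite direction. Another 4 probe sets differed in the same direction as the second, between -2.31 and -0.83, 3 of them without overlap and 11746986_x_at with overlap, and the last 2 stood between 3.08 and 4.14 on every array.

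HSPE1 was steadier between its 3 probe sets. The probe set 11716351_s_at, shared with the read-through gene HSPE1-MOB4, read 10.85, 11.48 and 11.70 on frozen with gradient arrays, 11.70, 11.82 and 11.997 on frozen without gradient arrays, and 11.00, 11.70 and 11.78 on fresh arrays. On this probe set the groups touched or overlapped throughout. On 11753996_x_at and 11716350_a_at each frozen without gradient array lay above every fresh and every frozen with gradient array. Over the 3 probe sets of HSPE1 the differences ran from 0.34 to 0.53 in frozen without gradient relative to fresh, from -0.15 to -0.02 in frozen with gradient relative to fresh and from -0.63 to -0.50 in frozen with relative to frozen without gradient cells, with SEs between 0.20 and 0.27.

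For the 7 gene units whose most variable and highest-mean probe sets differed, the difference between both was fitted in each comparison, 21 fits in all. It passed the same criterion in 4, namely HSPA1A/HSPA1B and HSP90AA1 in frozen without gradient relative to fresh and in frozen with relative to frozen without gradient cells. Over 6970 genes of this kind, 7.55% passed in frozen without gradient relative to fresh, 0.143% in frozen with gradient relative to fresh and 8.85% in frozen with relative to frozen without gradient cells. None of the 4 passed with the GAPDH covariate.

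The co-chaperones and relatives that work with these proteins were followed in 8 lists with 67 measured genes and 196 probe sets of a single symbol. In frozen with gradient relative to fresh cells 0 rose and 0 fell. The 3 smallest p belonged to HSPA13 (-0.69, SE 0.19), an HSP70 relative of the microsomes, HSPA14 (-0.53, SE 0.16), a ribosome-bound HSP70, and the HSP90 partner FKBP4 (-0.33, SE 0.12), none past the criterion (limma adjusted p = 0.824 each). This FKBP4 probe set read between 3.51 and 4.15 on every array, under the level of 5, while another one of the gene had a mean of 10.77. In frozen without gradient relative to fresh cells 5 of the 196 rose and 0 fell, where 1.4% and 0.144% of all probe sets did. They belonged to HSPA9, the mitochondrial HSP70 (1.75, SE 0.64), its J-domain partner DNAJA3 (1.54, SE 0.48), DNAJB6 (1.01, SE 0.38), the kinase-loading HSP90 partner CDC37 (1.04, SE 0.32) and HSF4, a factor of the HSF family (1.04, SE 0.33). Each of these genes rose on 1 probe set only, of 5 for HSPA9, DNAJB6 and HSF4, 3 for DNAJA3 and 1 for CDC37. The 3 smallest p there, on the HSP90 co-chaperones CHORDC1 (-0.81, SE 0.18) and SUGT1 (-0.80, SE 0.19) and another probe set of DNAJB6 (0.57, SE 0.15), stayed under a difference of 1 (limma adjusted p = 0.261 each). This DNAJB6 probe set read between 3.51 and 4.45 on every array, also under 5.

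In frozen with gradient relative to frozen without gradient cells 0 of the 196 rose and 12 fell, where 0.0893% and 2.65% of all probe sets did. They belonged to 7 genes, HSPA9 (-1.97, SE 0.64), DNAJA3, DNAJB6, STIP1, which bridges HSP70 and HSP90 (-1.83, SE 0.75), CDC37 (-1.31, SE 0.32), PTGES3, the HSP90 partner p23 (-2.78, SE 0.92, for the lowest of its 3 that fell), and FKBP5 (-1.16, SE 0.45). Those that fell were 1 of 5 for HSPA9, 2 of 3 for DNAJA3 and 3 of 5 for DNAJB6. For STIP1 they were 1 of 2, for CDC37 1 of 1, for PTGES3 3 of 4 and for FKBP5 1 of 6. The 3 smallest p belonged to CDC37 and to TRAP1, the mitochondrial HSP90 (-0.57, SE 0.13), and UNC45A (-0.61, SE 0.14), which did not pass (limma adjusted p = 0.253 each). The median differences over the 196 probe sets were -0.09 in frozen with gradient relative to fresh, 0.04 in frozen without gradient relative to fresh and -0.09 in frozen with relative to frozen without gradient cells. The 25 probe sets of the TRiC chaperonin, the cytosolic counterpart of HSP60, had a median mean signal of 11.91 and none passed in any comparison.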

How the data were processed

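RNA (100 ng per array) was hybridized by the authors to Affymetrix PrimeView arrays, 1 per sample, 3 per condition, and the number of arrays limits the precision. The deposited values are log2 signals per probe set that the authors computed by RMA (background correction, quantile normalization, summary of probes); they were used as deposited, and 0 columns were left aside. The 102 control probe sets of 49395 were kept out of the tests. Gene symbols came from the platform annotation. limma 3.58.1 (R 4.3.3) fitted 3 condition means over 9 arrays for each probe set, with Benjamini-Hochberg adjustment over all 49293; the criterion takes its thresholds from the study's text, with p read as unadjusted, while the methods name Benjamini-Hochberg adjustment and the most variable probe set per gene, an alternative here. The fit was tested on simulated data. All member probe sets are named, and from the chaperone lists the 3 probe sets with the smallest p in each comparison; other genes of those lists that passed were named after their values were seen. Genes like a member are the 5 with the highest Pearson's r. The members and lists were chosen with earlier results of these data known. Alternatives covered the probe set per gene, normalization, low signals, the variance model, array weights, the arrays in the fit, the replicate number, the GAPDH difference and leaving out arrays. Promoter sequences are RefSeq's (GRCh38.p14), searched with Python and aligned with Biopython.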

Additional observations from a re-analysis of the deposited data

Results flagged for a closer look

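On frozen with gradient replicate 1, which had the lowest signal of the 9 arrays on 5 of the 9 HSPA8 probe sets, the bacterial control RNAs averaged 5.17 (log2) for their 3′ signal over their 5′ signal, more than on the fresh arrays, where the values ran from 1.93 to 3.84. On frozen with gradient replicates 2 and 3 the bacterial controls gave 3.14 and 2.16, and on the frozen without gradient arrays 1.73, 1.99 and 1.73. Between frozen without gradient and fresh arrays the exact two-sided permutation p was 0.2 for these controls. It was also 0.2 for the 3′ minus 5′ difference of ACTB. The bacterial controls entered no comparison of the heat shock genes.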

How the results depend on the processing

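The counts here are member probe sets past the criterion, given first for frozen with gradient relative to fresh (2 with the deposited values), then for frozen without gradient relative to fresh (2), then for frozen with relative to frozen without gradient (5). With 1 value per gene, the counts of 9 units were 1, 2 and 2 by the most variable probe set, 0, 0 and 0 by the highest mean, and 1, 0 and 2 by the mean of all. Median centring gave 2, 2 and 5, an intensity trend with robust estimation 2, 2 and 6, quantile normalization 1, 1 and 3, cyclic loess 1, 5 and 5, a mean of at least 5 gave 1, 1 and 5, array weights 0, 13 and 8, the 6 compared arrays alone 1, 10 and 5, the GAPDH covariate 1, 2 and 0, and leaving out both arrays with the highest GAPDH difference 1, 5 and 4. Leaving out each array gave 0 to 4, 1 to 12 and 0 to 17. Without frozen with gradient replicates 1, 2 and 3 the counts were 1, 12 and 0, then 4, 1 and 6, then 3, 5 and 17. Without frozen without gradient replicates 1, 2 and 3 they were 2, 1 and 1, then 2, 1 and 3, then 2, 1 and 0. Without fresh replicates 1, 2 and 3 they were 0, 1 and 5, then 2, 1 and 4, then 3, 12 and 6. The difference between probe sets of a gene passed in 4 of 21 fits, in 0 with the covariate and in 1 to 8 without single arrays (8 without frozen with gradient replicate 3, 6 without its replicate 1 or fresh replicate 3, and 1 without any frozen without gradient array or fresh replicate 2). No value past the criterion with the deposited values changed sign. With the covariate HSPH1 11717096_a_at passed at -1.07 in frozen without gradient relative to fresh, where it was 0.69 and did not pass with the deposited values, and HSP90AB1 no longer passed there. Over all genes, array weights brought 6914, 14144 and 10504 probe sets to an adjusted p under 0.05, with weights between 0.135 and 5.99; leaving out fresh replicate 3 brought 1173 in the second comparison, and the covariate 1. Counts of all probe sets past the criterion (30, 762 and 1351) were between 5 and 303, 77 and 2434, and 135 and 3465 under the alternatives.

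Same-numbered arrays are not stated to share a culture or marrow sample. The deviations of same-numbered arrays from their condition means correlated between 0.03 and 0.76 over all probe sets, and 8 of 9 arrays correlated best with their own number, a hint from the data only. With the replicate block the counts were 2, 12 and 14, with probe sets of HSPA8, HSPH1, HSP90AA1 and HSPD1 added in the second (for HSPD1 1.30, 1.75 and 2.01) and of HSPA1A/HSPA1B, HSPH1, HSP90AA1 and HSPD1 in the third, and the difference between probe sets passed in 8 of 21 fits. Over all probe sets the counts past the criterion with the block were 46, 1218 and 2144.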
